A study of Homo sapiens with 18 samples.

Results

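The WNT ligands, their Frizzled and LRP receptors and their secreted antagonists were followed across 6 groups of HAP1 samples. The set holds 40 genes, chosen by name: 18 WNT ligands, 10 Frizzled receptors, the 2 co-receptors LRP5 and LRP6, and 10 secreted antagonists of the DKK, SFRP and WIF families. All 40 were found among the 20329 gene rows of the files. HAP1 is a near-haploid human cell line derived from a leukemia line, and the parental cells carry mutant p53, which all 6 groups therefore share. Polyadenylated RNA of 18 samples was sequenced, 3 per group. Set A held control cells (control A), ΔWAPL cells of clone 3.3, ΔSCC4 cells, and ΔWAPL/ΔSCC4 cells made by disrupting SCC4 in ΔWAPL cells, whose samples carry the clone name 3.3. Set B held its own control cells (control B) and ΔWAPL cells of clone 1.14. Only the titles of the controls carry A or B. The mutant groups were placed in a set by the run and lane named in their deposited data, shared with those controls. WAPL was disrupted with a CRISPR guide and a blasticidin cassette, and SCC4, the product of the gene MAU2, with a guide and a puromycin cassette. Each ΔWAPL line is 1 clone and was measured in 1 set only, so clone and set cannot be told apart except through the controls of each set. No label ties the 3 samples of a group to separate clones or cultures, so the p-values measure the spread between these samples, which may be technical.

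WNT proteins are secreted lipid-modified signals that bind Frizzled receptors on the cell surface. In the canonical branch the ligand also engages LRP5 or LRP6, which stops the destruction of β-catenin and lets it act with TCF/LEF factors on target genes. Other branches, of which WNT5A is the best known ligand, act through Frizzled, ROR and RYK receptors on cell polarity and movement. Several DKK proteins, DKK1 among them, block LRP5 and LRP6, while SFRP proteins, FRZB and WIF1 bind the ligands themselves. WAPL releases cohesin from DNA and SCC4 helps to load it, and the groups therefore compare cells with too little release, too little loading, or both.

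The total count per sample ranged from 10007646 to 20711127 reads on genes, with a median of 16177868. WAPL RNA was lower in every ΔWAPL group (log2 fold change -1.20 ± 0.17 in clone 3.3, -1.55 ± 0.10 in clone 1.14 and -1.13 ± 0.16 in ΔWAPL/ΔSCC4 cells, SE), and did not disappear. MAU2 fell to between 0.509 and 1.04 CPM (read counts scaled to the TMM-normalized library size) in the ΔSCC4 and ΔWAPL/ΔSCC4 samples, from between 52.1 and 72.7 CPM in all other samples. The blood cell genes PTPRC, CD34, CD33 and MPO never exceeded 7 reads in a sample, while VIM, KRT18 and CDH2, genes of adherent cells, were expressed in all groups. KRT8, a keratin of the same list, moved with the genotype, from 8.14 CPM in control A to 48.5 CPM in ΔWAPL/ΔSCC4 cells and 2.35 CPM in clone 1.14. Its part in the results that follow was not tested. In such bulk RNA, fewer cells that express a gene and less RNA per cell cannot be told apart.

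HAP1 cells expressed the receptor side of the pathway broadly and the antagonist side narrowly. Of the 40 members, 25 had enough reads to be tested in at least 1 comparison and 22 in all 9. These were 11 of the 18 ligands, all 10 Frizzled genes, both co-receptors, and 2 of the 10 antagonists, DKK3 and SFRP1. A member that reaches this filter only through the group where it is high is bound to differ, so the counts over tested members are given as descriptions. The 15 members without enough reads were WNT1, WNT2, WNT3A, WNT6, WNT7A, WNT9B, WNT16, DKK1, DKK2, DKK4, SFRP2, SFRP4, SFRP5, FRZB and WIF1. None of them reached more than 16 reads in a sample, and DKK4 and SFRP4 had no read in any of the 18.

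Levels of different genes were set side by side only as CPM per kilobase of exon. On that scale the co-receptors led in control A, with LRP6 at 20.6 and LRP5 at 11.4. Among the Frizzled genes FZD6 (10.1), FZD7 (6.41), FZD5 (6.002) and FZD3 (4.72) were highest, and FZD8 (0.429) and FZD10 (0.291) lowest. Among the ligands WNT10B (3.79), WNT5A (3.40) and WNT3 (2.51) stood above the rest, and WNT7B was at 0.0761. SFRP1, which binds WNT proteins outside the cell, was at 3.88, and DKK3, a divergent member of the DKK family, at 0.860. These values rest on the exon lengths of an annotation that need not be the one used for counting, and neighbors in this order were not tested against each other.

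**Figure D1:**
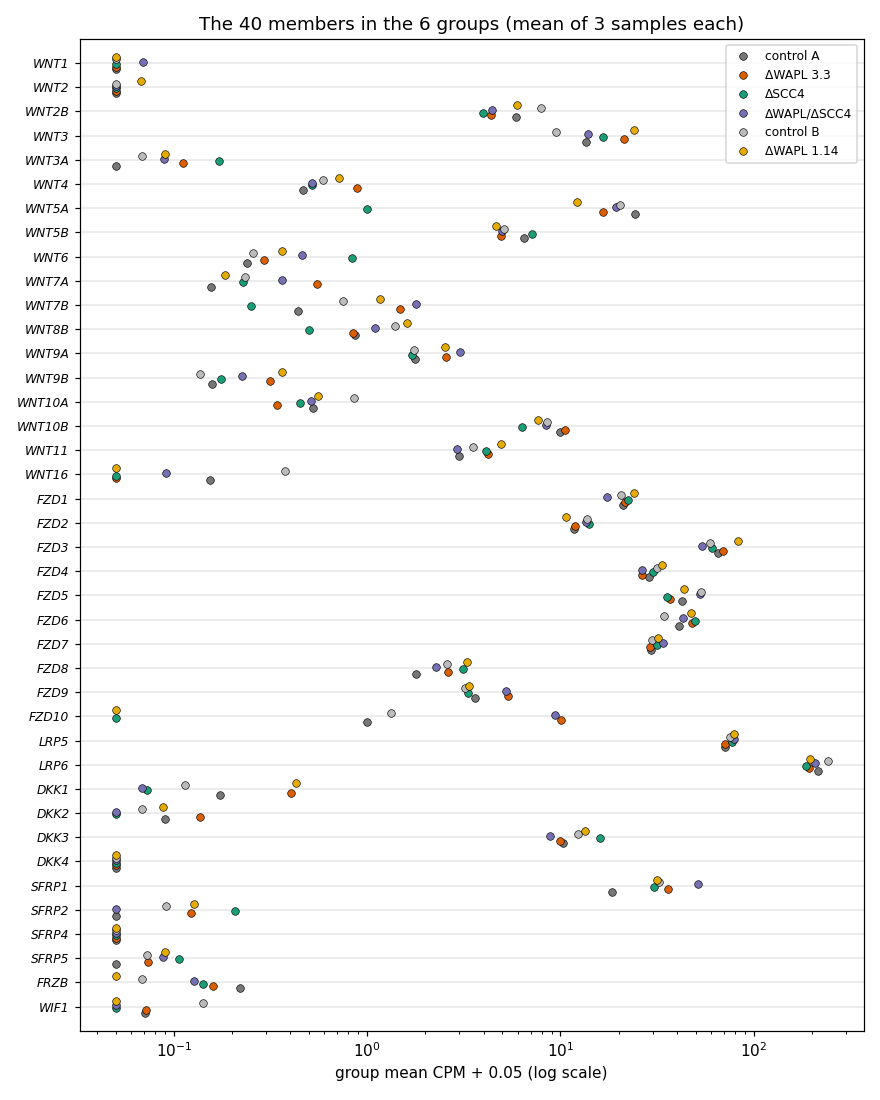
Group mean level of each of the 40 members, in CPM plus 0.05 on a log scale, with 1 point per group (mean of 3 samples). Most Frizzled and LRP genes lie close together in all 6 groups, while the points of FZD10 run from 0 in ΔSCC4 cells and clone 1.14 to 9.99 CPM in clone 3.3, and WNT5A has 1 point, that of ΔSCC4 cells, far below the others.

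FZD10, a Frizzled receptor gene on chromosome 12 (GRCh37 130647004 to 130650285, plus strand), changed more than any other member, and in opposite directions in different groups. It had 0.912, 1.23 and 0.715 CPM in control A and 1.30, 1.41 and 1.13 CPM in control B. In clone 3.3 it rose to 9.52, 10.8 and 9.70 CPM, and in ΔWAPL/ΔSCC4 cells it had 9.50, 8.17 and 10.3 CPM. No read of FZD10 was counted in any ΔSCC4 sample or in any sample of clone 1.14. The 3 levels, near 0, near 1 and near 10 CPM, did not overlap between any of these groups. Against control A, FZD10 was 10.3-fold higher in clone 3.3 (log2 fold change 3.36 ± 0.23, adjusted p = 1.6e-07) and 9.74-fold higher in ΔWAPL/ΔSCC4 cells (3.28 ± 0.21, adjusted p = 5.0e-06). The loss was at least 12.6-fold in ΔSCC4 cells, where the 46 reads of control A faced 0 (adjusted p = 0.0019), and at least 22.1-fold in clone 1.14, where the 60 reads of control B faced 0 (adjusted p = 0.0012). These bounds take 3 reads over the group as the most that a count of 0 allows, and cover counting error only. In the comparisons of these losses FZD10 reached the filter only through the controls. Both p-values are thus conditional on its being high in the controls and are no support of their own. The difference between the clones passed the test (adjusted p = 6.0e-07), as did the difference between the effect of SCC4 loss in clone 3.3 cells and in control cells (adjusted p = 0.00012). ΔWAPL/ΔSCC4 cells differed from clone 3.3 by a log2 fold change of -0.09 ± 0.14 (adjusted p = 0.77), and the controls of the 2 sets differed by 0.40 ± 0.27 (adjusted p = 0.58). A single value over both clones (1.45 ± 0.83, adjusted p = 0.25) averages a rise and a loss. Each call of FZD10 held in every alternative tried, with the same condition on the calls of the losses.

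WNT5A, the main ligand of the β-catenin independent branches, fell in ΔSCC4 cells to a level far below that of every other group. The gene lies on the minus strand of chromosome 3 (GRCh37 55499743 to 55524567). Control A had 16.5, 25.5 and 30.9 CPM and ΔSCC4 cells 0.715, 0.815 and 1.31 CPM, from 8 to 19 reads per sample. Clone 3.3 had 17.3, 19.8 and 12.6 CPM and ΔWAPL/ΔSCC4 cells 18.1, 22.6 and 17.5 CPM, which overlapped with control A. Control B had 20.8, 17.9 and 22.0 CPM, all above the 12.6, 11.99 and 11.7 CPM of clone 1.14. The fall in ΔSCC4 cells was 25.4-fold (log2 fold change -4.67 ± 0.31, adjusted p = 8.6e-06). In ΔWAPL/ΔSCC4 cells the value against control A was -0.33 ± 0.21 (adjusted p = 0.51), and the test of the difference between the 2 SCC4 effects gave 4.91 ± 0.38 (adjusted p = 5.9e-07). In ΔWAPL cells it was lower by a smaller amount, by 1.68-fold in clone 1.14 (-0.75 ± 0.09, adjusted p = 0.0016) and by 1.57-fold over both clones (-0.65 ± 0.14, adjusted p = 0.0051). Clone 3.3 on its own gave -0.57 ± 0.21 (adjusted p = 0.15). The difference between the clones was 0.19 ± 0.29 (adjusted p = 0.89).

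RefSeq lists a pair of start sites for WNT5A, and a count per gene does not tell which was used. The 250 bases before each are shown because WNT5A was the member with the largest change among those above 10 CPM in the controls. They are RefSeq sequences on GRCh38.p14, minus strand, from chr3:55487307-55487556 (upstream start) and chr3:55481399-55481648 (downstream start). Capitals mark CCCTC or its reverse complement GAGGG, the letters after which CTCF, a DNA-binding protein found beside cohesin, was named.
WNT5A upstream start: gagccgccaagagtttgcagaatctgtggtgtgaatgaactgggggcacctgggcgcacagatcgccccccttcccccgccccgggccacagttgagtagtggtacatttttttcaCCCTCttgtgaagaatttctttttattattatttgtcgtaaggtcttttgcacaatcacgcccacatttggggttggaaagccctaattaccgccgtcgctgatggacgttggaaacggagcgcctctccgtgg
WNT5A downstream start: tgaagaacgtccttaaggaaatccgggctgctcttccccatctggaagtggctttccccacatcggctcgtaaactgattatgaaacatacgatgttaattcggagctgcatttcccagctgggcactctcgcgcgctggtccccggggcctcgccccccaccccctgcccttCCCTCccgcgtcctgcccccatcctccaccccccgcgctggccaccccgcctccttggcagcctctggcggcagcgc
Each window held 1 such match, as 66.6% of all 35116 promoter windows of that length held at least 1. The windows had 52.8% and 64.4% G and C and 14 and 18 CpG, against medians of 58.0% and 11 over all windows. Neither held CTTTG or CAAAG, the core letters of the TCF/LEF site and their reverse complement, which 42.1% of all windows held. A match is a description of letters, not a measured binding site.

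WNT3, a canonical ligand, was higher in both ΔWAPL clones. It lies on the minus strand of chromosome 17 (GRCh37 44839872 to 44910520). Control A had 11.2, 14.4 and 14.9 CPM and clone 3.3 had 20.8, 21.6 and 21 CPM. Control B had 9.44, 9.95 and 8.78 CPM and clone 1.14 had 22.3, 25.1 and 24.3 CPM. In each set the ΔWAPL samples lay above the controls without overlap. The rise was 1.55-fold in clone 3.3 (log2 fold change 0.63 ± 0.16, adjusted p = 0.019), 2.54-fold in clone 1.14 (1.34 ± 0.09, adjusted p = 7.5e-05) and 1.98-fold over both (0.99 ± 0.13, adjusted p = 4.4e-05). Without control A replicate 2 or clone 3.3 replicate 2 the call in clone 3.3 was lost (adjusted p = 0.0698 and 0.106, in a range from 0.00083 to 0.11 over all alternatives). The clones differed by -0.70 ± 0.17 (adjusted p = 0.039), a call lost in 11 of the 12 fits that left out 1 sample (adjusted p from 0.0565 to 0.115) and kept only without control A replicate 1. ΔSCC4 cells had 15.5, 14.9 and 19.5 CPM (0.29 ± 0.17 against control A, adjusted p = 0.36, and 0.036 in a fit blocked by replicate number). ΔWAPL/ΔSCC4 cells had 13.4, 13.8 and 14.1 CPM, all below clone 3.3 and within the range of control A. WNT3 was thus 1.53-fold lower in ΔWAPL/ΔSCC4 cells than in clone 3.3 (-0.62 ± 0.12, adjusted p = 0.0032), and this difference departed from that between ΔSCC4 cells and control A by -0.90 ± 0.20 (adjusted p = 0.0069). Each genotype is 1 line, so line and genotype cannot be told apart. The 250 bases before the WNT3 start are shown beside those of WNT5A, since the 2 ligands moved in opposite directions in ΔWAPL cells (RefSeq, GRCh38.p14, minus strand, chr17:46818693-46818942, with the same letters in capitals).
WNT3 start: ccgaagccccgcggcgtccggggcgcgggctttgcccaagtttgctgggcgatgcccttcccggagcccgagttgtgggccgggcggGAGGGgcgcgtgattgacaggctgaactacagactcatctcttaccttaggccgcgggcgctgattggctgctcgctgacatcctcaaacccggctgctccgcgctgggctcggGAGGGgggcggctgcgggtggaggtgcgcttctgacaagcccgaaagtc
This window held 2 matches to GAGGG and none on the other strand, where 37.8% of all windows held at least 2 on either strand, and 1 match to CTTTG. It had 68.8% G and C and 26 CpG.

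SFRP1, a secreted antagonist that binds WNT proteins, was higher in every mutant of set A, and its level also differed between the controls of the 2 sets. Control A had 18.9, 16.8 and 19.3 CPM, the lowest of all groups. Clone 3.3 had 39.7, 37.5 and 30.2 CPM, ΔSCC4 cells 31.7, 29.9 and 30 CPM, and ΔWAPL/ΔSCC4 cells 50.02, 51.9 and 52.1 CPM. Control B had 33.4, 31.7 and 31.9 CPM and clone 1.14 had 29.9, 30.5 and 33.9 CPM, which overlapped. Against control A the log2 fold change was 0.95 ± 0.16 in clone 3.3 (adjusted p = 0.00084), 0.72 ± 0.14 in ΔSCC4 cells (adjusted p = 0.0071) and 1.48 ± 0.12 in ΔWAPL/ΔSCC4 cells (adjusted p = 2.6e-05). ΔWAPL/ΔSCC4 cells also exceeded clone 3.3, by 0.52 ± 0.13 (adjusted p = 0.014). The call in ΔSCC4 cells was lost without control A replicate 2 (adjusted p = 0.066), and that against clone 3.3 without ΔWAPL/ΔSCC4 replicate 3 (adjusted p = 0.0545). In clone 1.14 the value was -0.04 ± 0.07 (adjusted p = 0.68), and the clones differed by 1.01 ± 0.16 (adjusted p = 0.0030). Control B exceeded control A by 0.80 ± 0.12 (adjusted p = 0.026), so the comparisons with control A rest on the lower of the 2 control levels. That control difference was lost without control A replicate 1 or 2 or control B replicate 1 or 3 (adjusted p from 0.051 to 0.20). The 3 comparisons with control A share its samples. SFRP1 was the only member past the threshold between the controls, where 0.64% of all 12509 genes tested passed, 0.56% higher and 0.0799% lower in control B.

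**Figure D2:**
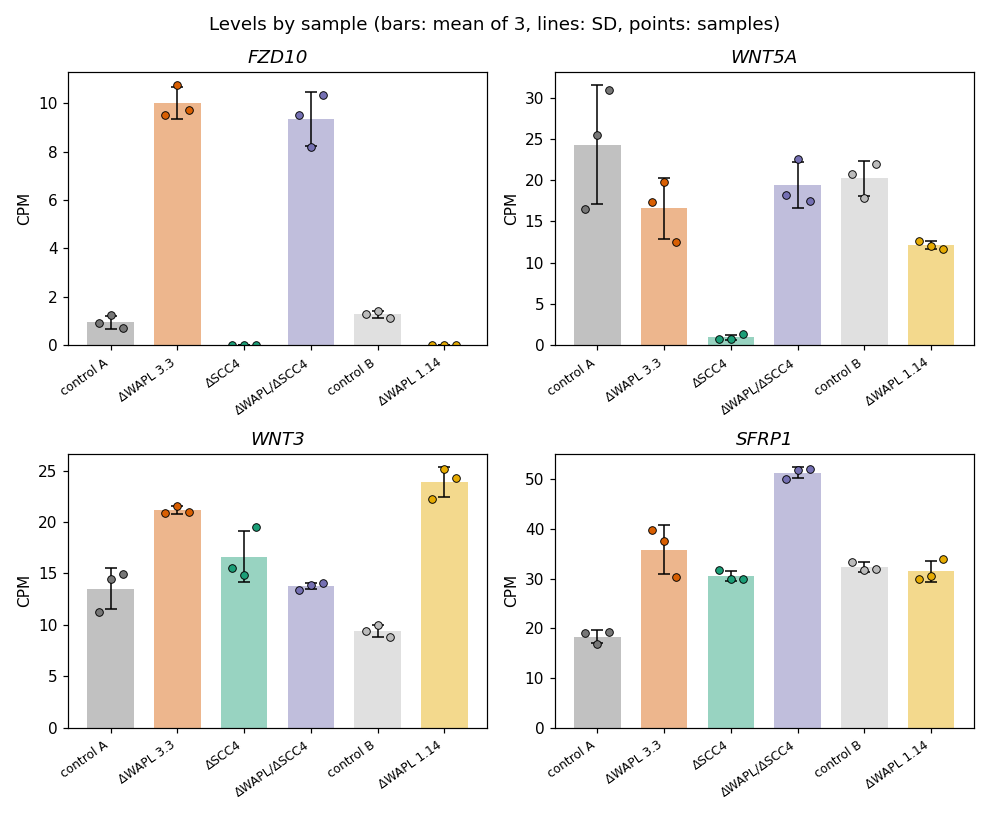
Levels of FZD10, WNT5A, WNT3 and SFRP1 in CPM, with points for samples, bars for the mean of 3 and lines for the SD. FZD10 is near 10 CPM in clone 3.3 and ΔWAPL/ΔSCC4 cells and at 0 in ΔSCC4 cells and clone 1.14, WNT5A is near 1 CPM in ΔSCC4 cells alone, WNT3 is above its controls in both ΔWAPL clones, and SFRP1 is lowest in control A.

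The members past the threshold were also counted by comparison, beside the share of all genes. In clone 3.3, 4 of the 24 members tested passed, all with higher levels (FZD10, WNT7B, SFRP1 and WNT3), beside 8.07% of all 12489 genes tested, 4.17% higher and 3.9% lower. The median log2 fold change was 0.04 over these 24 members and 0.00 over all genes. Without control A replicate 1 the count rose to 7, with WNT11 and FZD9 higher and WNT5A lower as the additional calls. In clone 1.14, 7 of 25 passed, 2 higher (WNT3 and WNT9A) and 5 lower (FZD10, WNT5A, WNT2B, FZD2 and FZD5), beside 20.1% of all 12636 genes, 8.7% higher and 11.4% lower. The median was 0.08 over the members and 0.00 over all genes. The fit over both clones gave 8 of 25, with WNT7B, WNT3, WNT9A, WNT11, FZD8 and FZD6 higher and WNT5A and WNT2B lower, beside 17.7% of all 12786 genes, 8.56% higher and 9.13% lower. Differences between the clones passed for FZD10, SFRP1 and WNT3, 3 of 25 members, and for 2.65% of all genes, 1.67% with a higher and 0.985% with a lower effect in clone 3.3.

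In ΔSCC4 cells 5 of 22 members tested passed, FZD8, SFRP1 and DKK3 higher and FZD10 and WNT5A lower, beside 9.49% of all 12503 genes, 5.45% higher and 4.03% lower. The median was 0.06 over the members and 0.00 over all genes. Here the replicate numbers paired the samples, and a fit blocked by that number gave 10 of 22 members, beside 46.0% of all genes. The 5 additional members under the block were WNT10B (-0.68 ± 0.13, adjusted p = 0.0018), WNT2B (-0.56 ± 0.15, adjusted p = 0.011), WNT3 (0.30 ± 0.10, adjusted p = 0.036), FZD6 (0.26 ± 0.07, adjusted p = 0.0095) and LRP6 (-0.19 ± 0.06, adjusted p = 0.018). The share of 10 of 22 members was no higher than that of all genes. The other 5 kept their calls under the block. These were WNT5A (-4.65 ± 0.15, adjusted p = 4.0e-09), SFRP1 (0.72 ± 0.08, adjusted p = 4.5e-05), DKK3 (0.62 ± 0.10, adjusted p = 0.00055) and FZD8 (0.83 ± 0.22, adjusted p = 0.0090). The fifth was FZD10, again against counts of 0 (adjusted p = 0.00038). ΔWAPL/ΔSCC4 cells against control A gave 4 of 23, all higher (FZD10, WNT7B, SFRP1 and WNT9A), beside 7.95% of all 12594 genes, 4.65% higher and 3.3% lower. Against clone 3.3, 3 of 24 passed, SFRP1 and FZD5 higher and WNT3 lower, beside 10.6% of all 12544 genes, 6.05% higher and 4.55% lower. The effect of SCC4 loss differed between clone 3.3 cells and control cells for FZD10, WNT5A, WNT3 and DKK3, 4 of 24 members, and for 11.3% of all 12817 genes, 5.85% with a higher and 5.48% with a lower effect in clone 3.3 cells. Clone 3.3, ΔSCC4 and ΔWAPL/ΔSCC4 cells were all compared with the same 3 samples of control A.

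**Figure D3:**
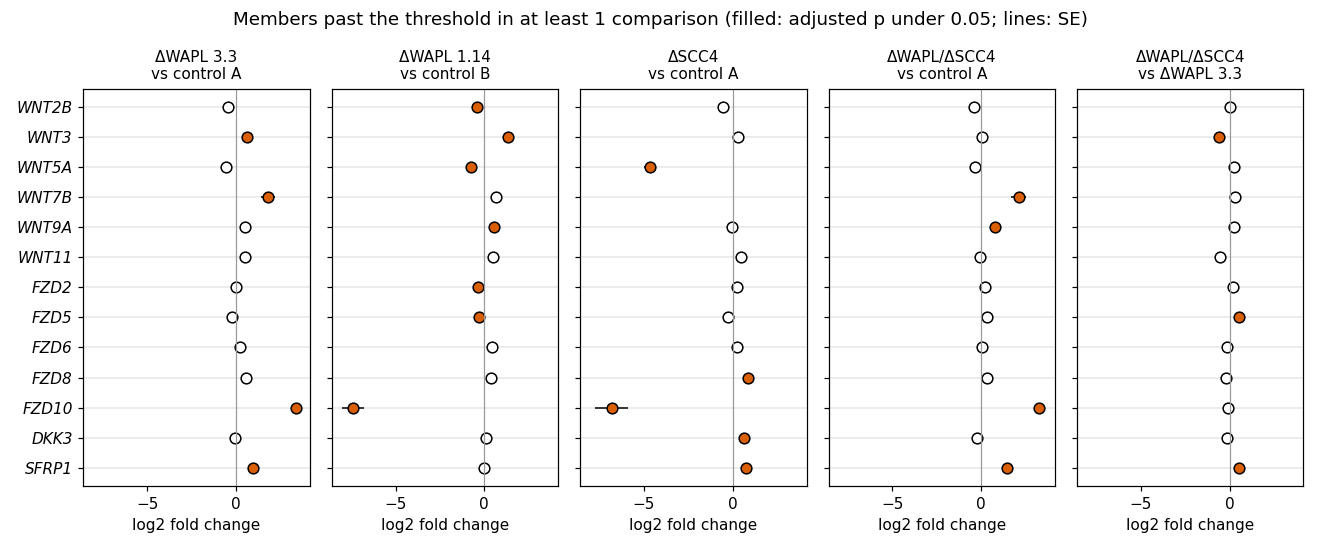
Log2 fold change of the 13 members past the threshold in at least 1 comparison, in 5 comparisons, with lines for the SE and filled points for an adjusted p under 0.05. FZD10 lies far to the right in clone 3.3 and ΔWAPL/ΔSCC4 cells and far to the left in clone 1.14 and ΔSCC4 cells, where its fitted value depends on counts of 0, and WNT5A lies far to the left in ΔSCC4 cells only.

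Among the weaker ligands, WNT7B was higher in the groups of clone 3.3. WNT7B, a ligand that signals through β-catenin in lung and in brain vessels, had 0.130, 0.493 and 0.536 CPM in control A and 1.20, 1.70 and 1.40 CPM in clone 3.3. ΔWAPL/ΔSCC4 cells had 1.99, 2.15 and 1.07 CPM. Both groups lay above control A without overlap, by 3.51-fold (1.81 ± 0.39, adjusted p = 0.0069) and 4.34-fold (2.12 ± 0.43, adjusted p = 0.011). With at most 9 reads in a sample of control A, WNT7B reached the filter in these comparisons only through the higher group, so both p-values are conditional on its being high there and are no support of their own. Without ΔWAPL/ΔSCC4 replicate 1 the latter call was lost (adjusted p = 0.0631). In control B it had 0.752, 0.672 and 0.675 CPM and in clone 1.14 1.27, 1.25 and 0.845 CPM (0.68 ± 0.24, adjusted p = 0.092), and over both clones it rose 2.31-fold (1.21 ± 0.28, adjusted p = 0.0067). ΔSCC4 cells had at most 0.407 CPM and 1 of their samples had no read, and WNT7B was not tested there.

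WNT9A, another member of the ligand family, rose 1.46-fold over both clones (0.55 ± 0.15, adjusted p = 0.018). It had 2.08, 1.73 and 1.37 CPM in control A, 2.29, 2.12 and 3.12 CPM in clone 3.3, and 3.02, 2.95 and 3.00 CPM in ΔWAPL/ΔSCC4 cells. In set B it had 1.64, 1.81 and 1.63 CPM in the controls and 2.81, 2.49 and 2.17 CPM in clone 1.14. The groups did not overlap in any of these comparisons, but the call in clone 1.14 (0.56 ± 0.16, adjusted p = 0.047) was lost in all 6 fits without 1 sample (adjusted p from 0.0574 to 0.188). That in ΔWAPL/ΔSCC4 cells (0.79 ± 0.20, adjusted p = 0.036) was kept without control A replicate 1 and lost in the other 5 (adjusted p from 0.0824 to 0.144).

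WNT2B was lower and WNT11 higher in ΔWAPL cells, both by small amounts. WNT2B, a canonical ligand, fell by 0.42 ± 0.10 on the log2 scale over both clones (adjusted p = 0.011). Its samples ran from 3.39 to 4.98 CPM in clone 3.3 against 5.54 to 6.11 CPM in control A, and from 5.25 to 6.31 CPM in clone 1.14 against 7.54 to 8.48 CPM in control B. In clone 1.14 alone the call (-0.42 ± 0.11, adjusted p = 0.032) was lost without control B replicate 1 or any sample of clone 1.14 (adjusted p from 0.0626 to 0.118). WNT11, a ligand of the polarity branch, was 1.41-fold higher over both clones (0.49 ± 0.16, adjusted p = 0.047), with values from 3.74 to 5.05 CPM in clone 3.3 and from 2.03 to 4.04 CPM in control A, which overlapped, and from 4.45 to 5.28 CPM in clone 1.14 and from 2.76 to 3.97 CPM in control B. That call was lost in 10 of the 12 fits without 1 sample (adjusted p from 0.0529 to 0.0986), and kept only without control A replicate 1 or control B replicate 2. WNT2B shares exon sequence with ST7L on the opposite strand, and the strand setting of the counting is not given in the sources used here.

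Among the other Frizzled genes the changes were all under 2-fold. FZD8 rose in ΔSCC4 cells (0.84 ± 0.23, adjusted p = 0.044), to 3.45, 2.34 and 3.46 CPM from 1.69, 1.91 and 1.61 CPM in control A, a call lost without control A replicate 2 or 3 or ΔSCC4 replicate 1 or 3 (adjusted p from 0.0967 to 0.147). Over both ΔWAPL clones it rose 1.37-fold (0.45 ± 0.12, adjusted p = 0.019). That call was lost without clone 1.14 replicate 1 (adjusted p = 0.0565), with DESeq2 (adjusted p = 0.0679) and with the replicate block (adjusted p = 0.0905). FZD6, which acts in planar polarity, rose 1.27-fold over both clones (0.34 ± 0.11, adjusted p = 0.039), with 44.4 to 51.3 CPM in clone 3.3, 35.4 to 46.0 CPM in control A, 45.6 to 47.8 CPM in clone 1.14 and 25.6 to 41.2 CPM in control B. This call was lost in 7 of the 12 fits without 1 sample, those without control A replicate 1 or 2, clone 3.3 replicate 1, control B replicate 1 or any sample of clone 1.14 (adjusted p from 0.0566 to 0.0838).

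FZD2 and FZD5 passed the threshold with small decreases in clone 1.14. FZD2 was at 10.1, 11.9 and 9.84 CPM against 14.2, 13.0 and 13.6 CPM in control B (-0.36 ± 0.09, adjusted p = 0.036), a call lost without control B replicate 1 or clone 1.14 replicate 1 or 3 (adjusted p from 0.121 to 0.135). FZD5, one of the more abundant Frizzled genes of these cells, was at 41.4, 45.7 and 43.9 CPM against 51.4, 52.2 and 56.3 CPM (-0.29 ± 0.07, adjusted p = 0.020), a call lost without control B replicate 1 or any sample of clone 1.14 (adjusted p from 0.0544 to 0.0959). In ΔWAPL/ΔSCC4 cells FZD5 was higher than in clone 3.3, with 50.3, 60.2 and 46.9 CPM against 39.3, 42.2 and 29.4 CPM (0.50 ± 0.15, adjusted p = 0.039), but not beyond control A, whose samples ran from 27.4 to 53.8 CPM (0.31 ± 0.21, adjusted p = 0.55). That call was lost without clone 3.3 replicate 3 or ΔWAPL/ΔSCC4 replicate 1 or 2 (adjusted p from 0.0648 to 0.089).

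DKK3, the only DKK gene with enough reads, was highest in ΔSCC4 cells. These had 15.2, 16.2 and 16.4 CPM, above the 10.2, 11.2 and 9.42 CPM of control A and the 9.62, 8.60 and 8.20 CPM of ΔWAPL/ΔSCC4 cells. The rise in ΔSCC4 cells was 1.53-fold (0.62 ± 0.15, adjusted p = 0.022), and the effect of SCC4 loss differed in clone 3.3 cells by -0.78 ± 0.19 (adjusted p = 0.015). The rise lost its call without control A replicate 2 or 3 or ΔSCC4 replicate 2 or 3 (adjusted p from 0.0563 to 0.0904). DKK3 overlaps exons of USP47 on the opposite strand. DKK1, the best known inhibitor of LRP6, stayed at low counts and was not tested: 19 reads over clone 3.3 against 6 over control A (ratio 3.11, 95% counting interval 1.19 to 9.51) and 20 reads over clone 1.14 against 3 over control B (ratio 6.03, 1.79 to 31.7). WNT16, a ligand of bone and blood development, had 15 reads over control B and none over clone 1.14, where it was at least 5.53-fold lower by the same bound as for FZD10. These intervals and bounds describe the libraries and are no test between conditions.

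**Figure D4:**
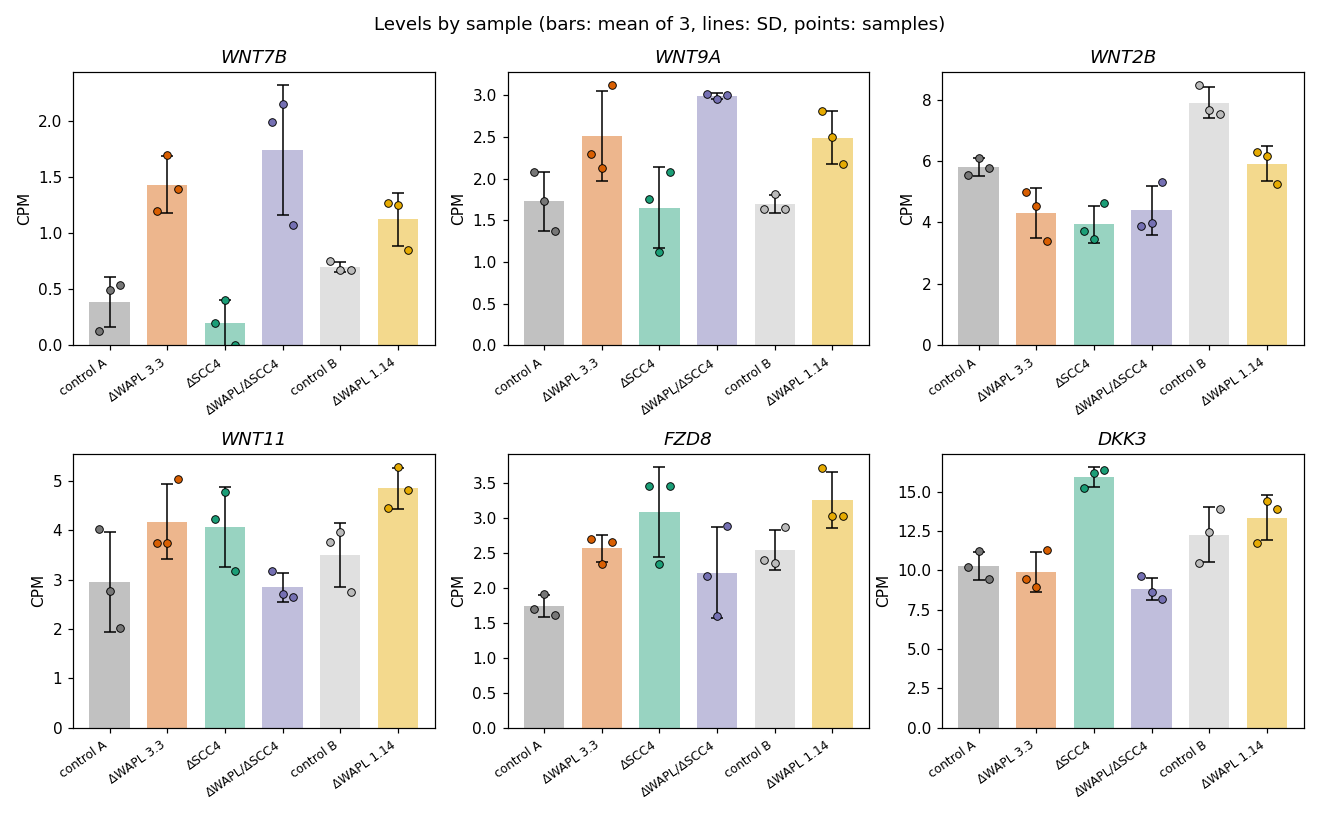
Levels of WNT7B, WNT9A, WNT2B, WNT11, FZD8 and DKK3 in CPM, with points for samples, bars for the mean of 3 and lines for the SD. WNT7B is above 1 CPM in every sample of clone 3.3 and ΔWAPL/ΔSCC4 cells and at most 0.536 CPM in control A, and DKK3 is highest in ΔSCC4 cells.

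The remaining 12 members that were tested passed in no comparison without the block, and LRP6 and WNT10B among them passed in ΔSCC4 cells with it, as given above. They were the ligands WNT4, WNT5B, WNT8B, WNT10A and WNT10B, the receptors FZD1, FZD3, FZD4, FZD7 and FZD9, and the co-receptors LRP5 and LRP6. LRP6 ranged from 146 to 289 CPM over the 18 samples, LRP5 from 57.1 to 91.2 CPM, FZD7 from 27.7 to 35.2 CPM and FZD1 from 17.2 to 25.1 CPM. In clone 1.14 LRP6 was at -0.31 ± 0.12 (adjusted p = 0.11) and FZD1 at 0.22 ± 0.07 (adjusted p = 0.086), and in ΔSCC4 cells WNT10B was at -0.66 ± 0.20 (adjusted p = 0.063, and 0.0018 with the block). A p above the threshold does not show that these levels were equal.

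Of 65 other genes of the pathway, 57 had enough reads in at least 1 comparison. In clone 3.3 13 of 54 tested passed (5 higher, 8 lower), beside 8.07% of all genes, and in clone 1.14 19 of 57 (8 higher, 11 lower), beside 20.1%. In ΔSCC4 cells 10 of 56 passed (8 higher, 2 lower), beside 9.49%. In ΔWAPL/ΔSCC4 cells 12 of 55 passed against control A (9 higher, 3 lower), beside 7.95%, and 10 of 55 against clone 3.3 (9 higher, 1 lower), beside 10.6%. Their medians lay between -0.09 and 0.09 on the log2 scale. Over both clones 21 of 57 passed (10 higher, 11 lower), beside 17.7% of all genes, between the clones 3 of 57, beside 2.65%, between the SCC4 effects 12 of 56, beside 11.3%, and between the controls 1 of 55, beside 0.64%. These counts, and those of the smaller lists, are descriptions, and no list was tested as a whole.

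Outside the cell, the modulators of the ligands that passed in the ΔWAPL clones were lower, with TRABD2A as the exception. Of the 7 extracellular modulators tested, 1 rose and 3 fell in clone 3.3, where 4.17% of all genes rose and 3.9% fell, and 4 fell in clone 1.14, where 11.4% of all genes fell. In ΔSCC4 cells 2 rose and 1 fell (5.45% and 4.03% of all genes), and in ΔWAPL/ΔSCC4 cells 1 rose and 2 fell against control A (4.65% and 3.3%). Against clone 3.3, 4 were higher in ΔWAPL/ΔSCC4 cells (6.05%). GPC4 and GPC3, glypicans that hold WNT proteins at the surface, fell by 0.91 and 0.59 in clone 3.3 and by 0.98 and 0.50 in clone 1.14 on the log2 scale. KREMEN1, a receptor for DKK proteins, fell by 0.73 and 0.77. NOTUM, the enzyme that strips the lipid from WNT proteins, was at -0.77 and -1.02. It was the 1 gene of the 3 for ligand secretion and removal to pass in the clones, where 3.9% and 11.4% of all genes fell. TRABD2A, a protease that inactivates WNT proteins, was higher against control A in clone 3.3 (1.43), ΔSCC4 (1.21) and ΔWAPL/ΔSCC4 cells (1.73), and also differed between the controls (1.34, adjusted p = 0.023).

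RNF43, a ubiquitin ligase that removes Frizzled receptors from the surface, was lower in both clones and higher in ΔWAPL/ΔSCC4 cells. Its mean was 2.55 CPM in control A, 1.38 CPM in clone 3.3 (-0.89, adjusted p = 0.039), 6.55 CPM in ΔWAPL/ΔSCC4 cells (1.36 against control A, adjusted p = 0.0012), 3.14 CPM in control B and 0.997 CPM in clone 1.14 (-1.67, adjusted p = 0.0024). Of the 4 genes of the R-spondin module tested, 2 passed in each clone, RNF43 and RSPO1 (-1.21) in clone 3.3 and RNF43 and ZNRF3 (-0.26) in clone 1.14. All were lower, beside 3.9% of all genes lower in clone 3.3 and 11.4% in clone 1.14. RSPO1 is a secreted enhancer of WNT signaling and ZNRF3 is the paralog of RNF43. RSPO1 had from 8 to 40 reads in a sample of clone 3.3 and from 40 to 53 in control A. It thus reached the filter there only through the controls, and its call is no support of its own. In clone 1.14 its mean was 2.34 CPM, beside 2.17 CPM in control B. Of the other receptors and planar polarity genes, PRICKLE1, a cytoplasmic polarity protein, fell in clone 3.3 (-0.74), clone 1.14 (-0.54) and ΔWAPL/ΔSCC4 cells (-1.16). The WNT5A receptors ROR1 and ROR2 passed in clone 1.14 in opposite directions (1.13 and -0.79), and CELSR3, a polarity cadherin, fell in ΔSCC4 cells (-0.85), where WNT5A also fell. ROR1 passed in ΔSCC4 cells too (1.61), but with at most 8 reads in a sample of control A it reached the filter there only through the higher group. In clone 1.14 ROR1 likewise reached the filter only through the higher group, as control B had from 6 to 15 reads in a sample. Neither call of ROR1 is support of its own.

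Inside the cell, 1 of the 11 genes of the destruction complex and transducers passed in each of clone 3.3, clone 1.14 and ΔSCC4 cells. In ΔWAPL/ΔSCC4 cells against control A the count was 0. Of the 13 nuclear factors 1, 4, 2 and 2 passed in these groups, in the same order. The shares of all genes were 8.07%, 20.1%, 9.49% and 7.95%. Of the 11 genes of the destruction complex and transducers, APC2, a relative of the tumor suppressor APC, was the 1 called in clone 3.3 (1.12), clone 1.14 (1.14) and ΔSCC4 cells (1.45). APC itself passed over both clones only (0.71, adjusted p = 0.0496), and its samples in control B ran from 26.15 to 98.15 CPM. Among the 13 nuclear factors TLE1, a co-repressor of TCF factors, rose from a mean of 0.911 CPM in control A to 11.1 CPM in ΔSCC4 cells (3.58, adjusted p = 2.1e-06). TLE1 rose less in clone 1.14 (1.00) and ΔWAPL/ΔSCC4 cells (1.03), the latter at a mean of 1.87 CPM, beside 1.64 CPM in control B. Its relatives TLE3 and TLE4 passed as a decrease in both clones (-0.48 and -0.19) and as a rise in ΔSCC4 (0.87) and ΔWAPL/ΔSCC4 cells (0.62), and TCF7L2, a TCF factor, rose in clone 1.14 (0.35).

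On the list of feedback and target genes 3 of 7 rose in clone 3.3 (4.17% of all genes), 3 of 8 in clone 1.14 (8.7%), 2 of 7 in ΔSCC4 cells (5.45%) and 3 of 7 in ΔWAPL/ΔSCC4 cells against control A (4.65%). None of its genes passed with a decrease in these 4 comparisons, while over both clones 4 rose and 1 fell. CCND1, the gene of cyclin D1 and also a target of many other pathways, rose from a mean of 5.29 CPM in control A to 23.3 CPM in clone 3.3, 39.0 CPM in ΔSCC4 cells and 19.9 CPM in ΔWAPL/ΔSCC4 cells, and from 7.87 CPM in control B to 42.7 CPM in clone 1.14. APCDD1, a membrane-bound WNT inhibitor, passed in the same 4 comparisons (1.42, 1.48, 1.81 and 2.09 in clone 3.3, clone 1.14, ΔSCC4 and ΔWAPL/ΔSCC4 cells), but had at most 9 reads in a sample of control A and 12 in control B, reached the filter mainly through the higher group, and is no support for the list. TNFRSF19, a receptor of the TNF family, rose in 3 of them (0.92, 0.98 and 0.76), without ΔSCC4 cells. NKD1, an inhibitor induced by WNT signals, passed over both clones with a decrease (-0.24). AXIN2, a common readout of β-catenin activity, and CTNNB1, the gene of β-catenin, passed in no comparison and are named after their values were seen. Their group means ran from 8.33 to 11.1 CPM and from 439 to 507 CPM.

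**Figure D5:**
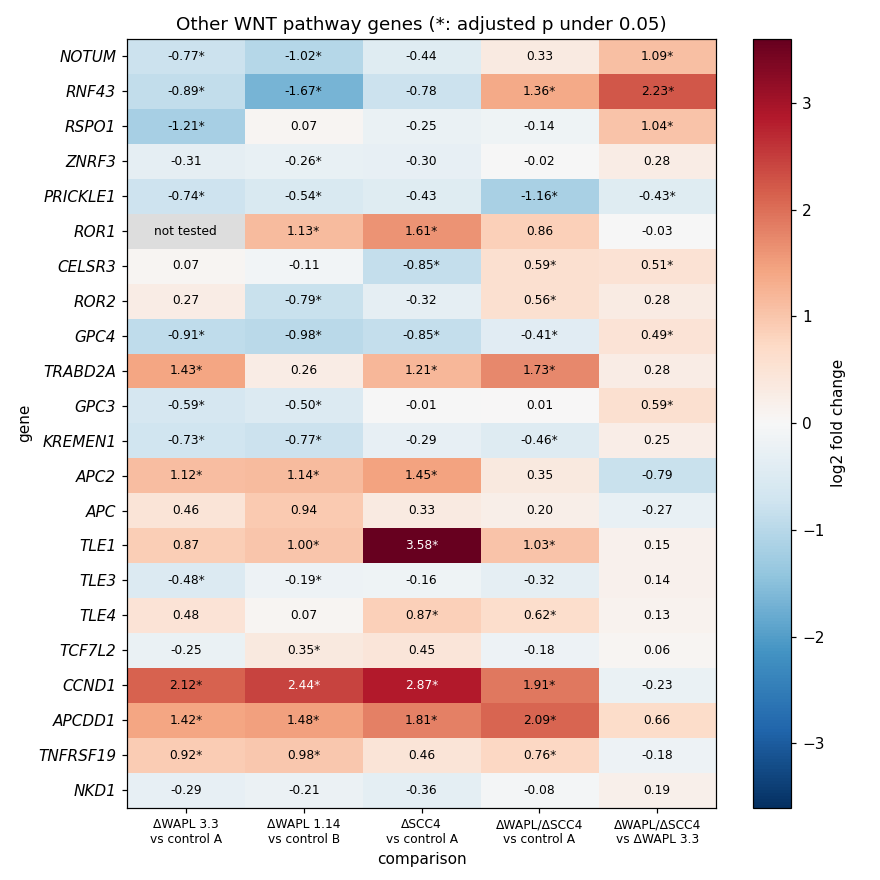
Log2 fold change of the other pathway genes named in the text, by comparison, with red for higher and blue for lower and a star for an adjusted p under 0.05. CCND1 and APCDD1 are red in the 4 comparisons with controls, GPC4 is blue in them, and RNF43 turns from blue in the ΔWAPL clones to red in ΔWAPL/ΔSCC4 cells.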

How the data were processed

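RNA-seq of 18 HAP1 samples in 6 groups was analysed. Per the labels and the study's methods, the authors sequenced polyadenylated RNA with a stranded kit, aligned the reads to hg19 with TopHat (TopHat2 2.0.9 in the submitters' processing notes) and counted them per gene with HTSeq. The deposited values are raw read counts per gene, without normalization. Between 20.3% and 22.6% of the reads of a sample were assigned to no gene and left out. Gene symbols came from the GENCODE annotation on GRCh37, which held 96.6% of the gene identifiers.

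Tests used edgeR 4.0.16 in R 4.3.3, quasi-likelihood F tests with TMM normalization, filterByExpr and Benjamini-Hochberg adjustment over all genes tested, at a threshold of 0.05, in a fit of only the groups compared. Both clones were fitted with the set as a covariate. The SE of a log2 fold change was obtained by dividing its size by the root of the F statistic. Levels are CPM, TMM-normalized over all samples. The fits were tested on simulated data. No 2 samples held identical counts, and replicates differed beyond sampling noise (chi-square per degree of freedom from 1.61 to 52.0). Same-numbered samples of ΔSCC4 and control A deviated together (correlations over genes of 0.68, 0.12 and 0.62), all above the limit of 0.1, so the blocked values are given beside that comparison. The other comparisons did not meet it.

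The alternatives were DESeq2 (1.42.0; the submitters used DESeq2 1.10.1), its size factors, no filter, a single fit to the 18 samples, a block for the replicate number, and leaving out each sample. Every member is accounted for, and members past the threshold in at least 1 comparison are given with their values. Of the other pathway genes at most 4 per list are named, those past the threshold in the most comparisons. The members and lists were chosen with earlier results of these data known. Promoter windows came from a RefSeq table (GRCh38.p14) that held 27 of the 40 members; FZD10 and WNT7B were not among them.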

Additional observations from a re-analysis of the deposited data

Results flagged for a closer look

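For 3 members the 2 clones differed in their change against the controls of their set. FZD10 rose in all 3 samples of clone 3.3 and had no read in the 3 samples of clone 1.14. The fitted difference of 10.77 on the log2 scale depends on how counts of 0 are treated and is no measure of size. SFRP1 rose in clone 3.3 and not in clone 1.14 (difference 1.01), and WNT3 rose less in clone 3.3 than in clone 1.14 (difference -0.70). Clone and set cannot be told apart in these differences, and the control levels of SFRP1 differed between the sets.

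The effect of SCC4 loss differed between clone 3.3 cells and control cells for 4 members. The differences were 6.84 for FZD10, again with a group at 0, 4.91 for WNT5A, -0.90 for WNT3 and -0.78 for DKK3. FZD10 and WNT5A were lost or nearly lost in ΔSCC4 cells and kept in ΔWAPL/ΔSCC4 cells, while WNT3 was lower in ΔWAPL/ΔSCC4 cells than in clone 3.3 and at 0.29 in ΔSCC4 cells against control A. Each genotype is 1 line here, and differences between lines cannot be told apart from effects of the genotype.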

How the results depend on the processing

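Of 39 calls of a member in a comparison, 21 kept their direction and their side of the threshold under every alternative run, and none of 519 values changed direction. With 1 fit over all 18 samples 4 members passed in clone 1.14 in place of 7, and 2 between the controls in place of 1, WNT3 being the second. In that fit WNT2B, WNT9A, FZD2 and FZD5 lost their calls in clone 1.14 (adjusted p from 0.0767 to 0.47). FZD5 also lost its call in ΔWAPL/ΔSCC4 cells against clone 3.3 (adjusted p = 0.19). With a block for the replicate number 4 passed over both clones in place of 8, and 10 in ΔSCC4 cells in place of 5. In the other 7 comparisons the block kept the count within 1.5 times, though the numbers did not pair the samples there. Leaving out 1 sample gave from 3 to 7 members in clone 3.3, from 3 to 9 in clone 1.14, from 2 to 6 in ΔSCC4 cells, from 2 to 6 in ΔWAPL/ΔSCC4 cells against control A, and from 0 to 1 between the controls. The cause of these changes was not tested, beside the smaller number of samples. DESeq2, its size factors and no filter kept every count within 1.5 times, but not every call. DESeq2 lost WNT2B, WNT9A and FZD2 in clone 1.14 (adjusted p = 0.134, 0.262 and 0.105). It also lost FZD8 over both clones (0.0679) and in ΔSCC4 cells (0.14), and WNT9A in ΔWAPL/ΔSCC4 cells against control A (0.174). Without the filter WNT9A and FZD2 in clone 1.14 and WNT11 over both clones came just above the threshold. The 15 members without enough reads, at most 16 in a sample, could not be tested at this depth.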

Other observations

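The genes within 1 Mb of FZD10 and WNT5A were looked up after the values of these members had been seen. Of the 6 genes measured near FZD10, STX2, which encodes a syntaxin of membrane fusion, and RAN, a nuclear transport protein, were expressed well in all groups and passed in no comparison. The mean of STX2 was 51.0 CPM in ΔSCC4 cells and 61.1 CPM in clone 1.14, the groups in which FZD10 had no read, and 59.9 CPM in clone 3.3. RIMBP2, a synaptic scaffold gene 230 kb from FZD10, was low throughout. It had a mean of 0.265 CPM in control A, 0.0166 CPM in clone 3.3, 1.75 CPM in ΔSCC4 cells and 1.33 CPM in ΔWAPL/ΔSCC4 cells, and of 0.652 CPM in control B and 0.0555 CPM in clone 1.14. It reached the filter on low counts only through the groups where it was high, so these levels are given without a test.

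Near WNT5A, ERC2, a synaptic scaffold gene 17.8 kb away, passed in no comparison (-0.70 in ΔSCC4 cells, adjusted p = 0.0999). CACNA2D3, a calcium channel subunit gene 391 kb away, was lower in ΔSCC4 cells (-1.40, adjusted p = 0.0043) and clone 1.14 (-1.55, adjusted p = 0.0067), as WNT5A was, and was at 0.42 in ΔWAPL/ΔSCC4 cells (adjusted p = 0.28).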
